A study of Drosophila melanogaster with 42 samples.

Results

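The binding of MSL1 was compared between M1[WT] males and M1[WT]+MSL2 females of Drosophila melanogaster, using every record of the 1 peak list deposited for each. The male list has 21980 records and the female list 905. These 22885 records are part of the 39130 in all 6 peak lists of MSL1, MSL2 and MSL3. A record of one list was paired with a record of the other when the gap between their edges was at most 500 bp. M1[WT] males carried 2 copies of the Ubi:msl-1WT transgene in the msl-1- null background (msl-1γ269/msl-1L60). M1[WT]+MSL2 females had the same background, 1 copy of Ubi:msl-1WT and 1 copy of Ubi:msl-2WT-FLAG. All MSL1 in both lines therefore came from a transgene driven by the strong and broadly active Ubi-p63E promoter, and MSL2, normally made in males, came in the females from a transgene too. Whole adult flies aged 3 days according to the labels (2 to 3 days in the protocol) were used, so that tissues were mixed and cell types cannot be told apart. The protocol text speaks of adult males for all samples, while the sex given for the 2 female libraries is female.

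The MSL complex of Drosophila raises transcription of the single male X chromosome. MSL1 is its scaffold, which binds MSL2, and MSL2 together with the zinc-finger protein CLAMP recognises GA-rich elements on the X chromosome. The sites from which the complex is thought to spread are known as high-affinity sites, or HAS. The noncoding RNAs roX1 and roX2 are part of the complex and are transcribed from genes that are themselves HAS. MSL3 reads the histone mark of transcribed gene bodies.

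The male list came from 1 library and the female list from 2 biological replicates, so there is no replicate error between the lines. The female list was filtered by the irreproducible discovery rate (IDR), which keeps peaks that recur in 2 inputs, and the male list was not. Of the male records, 3406 (15.5%) had p over 0.01 and 6007 (27.3%) had q over 0.05, while the lowest −log10 p in the female list was 8.90. The methods count fewer strong autosomal MSL1 regions in these males than the deposited list gives, while their counts for MSL2 and MSL3 match the deposited lists, so the MSL1 list may differ from the set used there. Shares of the male list, its X share and the sequence near its records hold for the deposited list. Sex, the dose of the msl-1 transgene, the msl-2 transgene and the way in which the list was made cannot be told apart in any difference below. Values were used only as ranks within a list, by −log10 p, and a percentile of 100 is the strongest record. Intervals are 95% intervals over records, cover counting error only, and records of 1 list are not replicates of a line.

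The sequence around the summit, the position of highest enrichment, is given for roX1, roX2, Pp2C1 and 2 further X-linked pairs of high rank, and for 2 strong X-linked records of males that had no record in females. They show the GA-rich sequence for which the X-linked sites are known and how much it varied between them. Each run is read from the dm6 assembly from 5′ to 3′ and reaches 50 bases to either side of the male summit. Capitals mark a GA repeat, that is at least 8 alternating bases of G and A (GAGAGAGA or AGAGAGAG, or TCTCTCTC or CTCTCTCT on the other strand).
roX1, chrX:3861294-3861394, plus strand: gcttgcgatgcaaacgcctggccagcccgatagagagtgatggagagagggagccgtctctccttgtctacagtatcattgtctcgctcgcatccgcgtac
roX2, chrX:11580206-11580306, plus strand: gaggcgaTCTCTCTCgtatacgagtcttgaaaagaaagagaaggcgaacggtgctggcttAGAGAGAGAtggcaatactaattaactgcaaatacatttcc
Pp2C1, chrX:4684508-4684608, plus strand: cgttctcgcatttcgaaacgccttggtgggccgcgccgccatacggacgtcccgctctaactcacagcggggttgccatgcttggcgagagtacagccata
CG12237, chrX:19641046-19641146, plus strand: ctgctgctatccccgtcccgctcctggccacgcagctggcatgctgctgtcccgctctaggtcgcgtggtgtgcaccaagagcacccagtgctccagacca
CG1677 and Atg5, chrX:7320999-7321099, minus strand: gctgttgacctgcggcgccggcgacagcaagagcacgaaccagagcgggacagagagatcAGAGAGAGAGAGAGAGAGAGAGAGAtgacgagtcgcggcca
Idh3a (male list only), chrX:19521104-19521204, plus strand: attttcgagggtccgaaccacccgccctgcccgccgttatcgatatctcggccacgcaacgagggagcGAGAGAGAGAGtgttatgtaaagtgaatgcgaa
baz (male list only), chrX:17193171-17193271, minus strand: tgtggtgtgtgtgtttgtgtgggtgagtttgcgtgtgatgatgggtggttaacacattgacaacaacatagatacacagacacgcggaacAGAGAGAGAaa

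The roX1 summit had shorter runs of alternating G and A, and the Pp2C1 and CG12237 windows had none of 8 bases. The roX2 window had 17 bases of GA repeat in 2 stretches, on opposite strands, and that in CG1677 and Atg5 had 25 in 1 stretch. The male-only windows in Idh3a and baz had 11 and 9. They do not stand for all strong male-only records of the X chromosome. The windows of the same length in CG2278 and Smr, which ranked higher in males and are not shown, had no GA repeat. In the strongest 5% of the male list 23 of 278 X-linked male-only records (8.27%) had one within 100 bp of the summit.

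The strongest autosomal pairs had no GA repeat. When their sequences were read, a word of 7 bases recurred in them. The word is AAGCAGT, read on the opposite strand as ACTGCTT, and it is in capitals in these runs. The word was noticed after the values were seen. The first 7 runs are autosomal pairs, centred on the male summit, and the last 3 are female records without a male record, centred on the female summit.
InR, chr3R:21580232-21580332, plus strand: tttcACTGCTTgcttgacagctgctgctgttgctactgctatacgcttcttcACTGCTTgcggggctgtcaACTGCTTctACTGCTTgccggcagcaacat
mRpL13, chr2L:18859309-18859409, plus strand: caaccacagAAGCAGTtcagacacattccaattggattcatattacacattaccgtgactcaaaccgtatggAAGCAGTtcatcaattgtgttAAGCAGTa
CG13698, chr3L:18088181-18088281, plus strand: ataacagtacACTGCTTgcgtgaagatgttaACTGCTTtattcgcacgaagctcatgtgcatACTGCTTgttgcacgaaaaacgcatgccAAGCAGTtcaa
T48, chr3R:26881478-26881578, plus strand: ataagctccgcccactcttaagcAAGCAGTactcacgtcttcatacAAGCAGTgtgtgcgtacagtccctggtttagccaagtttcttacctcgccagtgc
dachs, chr2L:8478110-8478210, plus strand: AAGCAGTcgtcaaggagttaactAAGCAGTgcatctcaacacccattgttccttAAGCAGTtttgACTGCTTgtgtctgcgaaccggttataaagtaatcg
Rtnl1, chr2L:5001434-5001534, plus strand: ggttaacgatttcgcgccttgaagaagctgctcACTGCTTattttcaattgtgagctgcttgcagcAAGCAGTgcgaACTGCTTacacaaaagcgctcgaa
bun, chr2L:12520349-12520449, plus strand: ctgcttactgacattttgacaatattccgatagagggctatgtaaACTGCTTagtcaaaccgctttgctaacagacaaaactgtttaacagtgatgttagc
lobo (female list only), chr3R:25193975-25194075, plus strand: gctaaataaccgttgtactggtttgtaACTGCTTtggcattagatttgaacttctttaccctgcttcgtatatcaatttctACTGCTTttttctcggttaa
Slob (female list only), chr2L:7641775-7641875, plus strand: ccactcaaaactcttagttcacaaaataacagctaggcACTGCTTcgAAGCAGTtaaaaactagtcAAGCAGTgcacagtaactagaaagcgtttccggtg
CG32196 (female list only), chr3L:18460445-18460545, plus strand: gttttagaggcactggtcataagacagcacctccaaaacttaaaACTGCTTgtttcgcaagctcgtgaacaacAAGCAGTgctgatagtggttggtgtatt

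InR, CG13698 and dachs had 4 copies of the word within these bases, mRpL13 and Rtnl1 had 3, T48 had 2 and bun had 1. The female-only sites had 2 copies near lobo, 3 near Slob and 2 in CG32196.

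Nearly all female records lay at a male record. Of 905 female records, 859 (94.9%, 93.3 to 96.2) had a male record within 500 bp, whereas 22.3% of the sequence of the chromosome arms lay that near to a male record. On the X chromosome 504 of 522 female records (96.6%, 94.6 to 97.8) had a male record, and 29.4% of the X sequence did. On the autosomes the numbers were 349 of 374 (93.3%, 90.3 to 95.4) and 20.7%. By arm the counts were 72 of 80 on 2L, 73 of 76 on 2R (96.1%), 96 of 104 on 3L (92.3%) and 107 of 113 on 3R (94.7%). Chromosome 4 and the Y chromosome had 1 female record each, and both had a male record.

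In the other direction, 1203 of 21980 male records (5.47%, 5.18 to 5.78) had a female record. The share was 17.1% on the X chromosome (740 of 4317) and 2.59% on the autosomes (456 of 17624), and 5.27% and 0.502% of the respective sequence lay within 500 bp of a female record. A single female record often had several male ones within 500 bp. Of paired female records, 55.2% (X chromosome) and 30.7% (autosomes) had 2 or more male partners. The most was 7, for a female record of 7509 bp in CG12236 (chrX:5907950-5915458).

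The X chromosome held 57.7% of the female records (522) and 19.6% of the male records (4317). The male share depended strongly on rank. In the strongest 5% of the male list 63.6% of records were X-linked (60.7 to 66.4), and in the weakest 5% 5.82% were. Of the 905 strongest male records, as many as the female list holds, 64.5% were X-linked.

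The chance of a female record fell along the male list in the same way. In the strongest 5%, 617 of 1099 male records (56.1%) had one, in the next 5% 18.2%, then 8.55%, 5.19% and 3.09%. In the same rank class the X-linked records had one more often. In the strongest 5% the shares were 421 of 699 on the X chromosome (60.2%, 56.6 to 63.8) and 194 of 394 on the autosomes (49.2%, 44.3 to 54.2), and in the next 5% they were 23.4% (20.1 to 27.1) and 12.5% (9.99 to 15.7). The X-linked records were also wider, with medians of 1353 against 843.5 bp in the first class and 920 against 642 bp in the next. More of the X sequence lay near a female record, 5.27% against 0.502% on the autosomes. The part of width and of this sequence in the difference was not tested. Of the 3406 male records with p over 0.01, 19 (0.558%) had a female record.

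**Figure D1:**
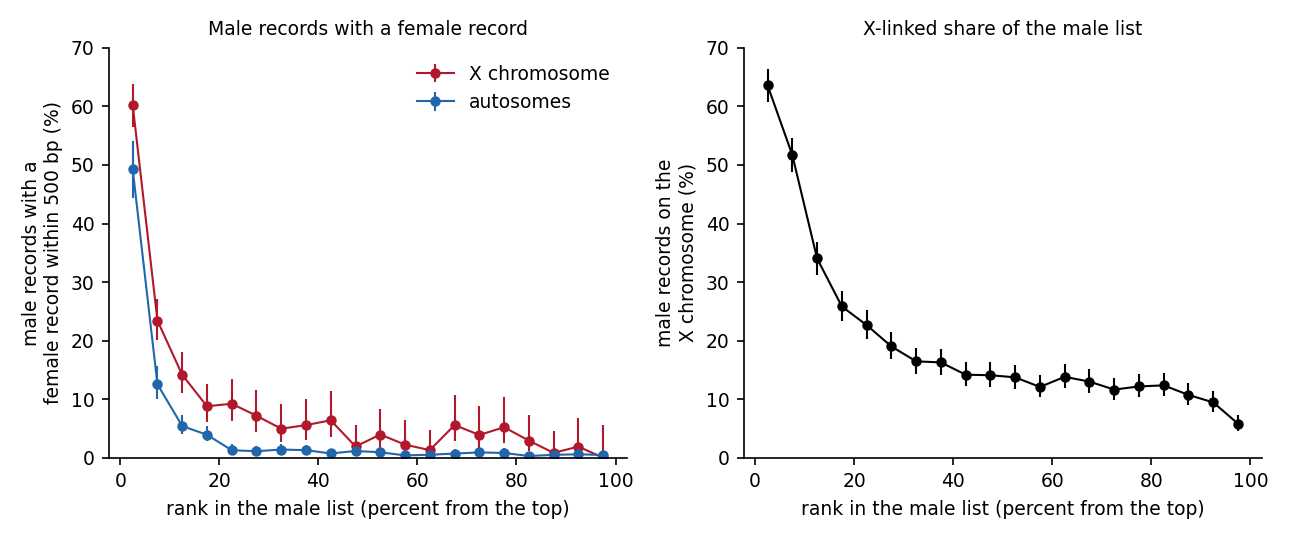
Male MSL1 records in 20 classes of 5% by rank, strongest at the left. Left panel, percent with a female record within 500 bp on the X chromosome (red) and the autosomes (blue); right panel, percent of all records that are X-linked; bars are 95% Wilson intervals. Both fall steeply, from 60.2% and 49.2% (left) and from 63.6% (right) in the first class.

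The median percentile of X-linked male records was 96.2 with a female record and 67.6 without one. On the autosomes these medians were 93.3 and 44.3. Seen from the female records, the strongest male partner had a median percentile of 98.4 (X chromosome) and 95.8 (autosomes), and 393 of 504 (78.0%) and 194 of 349 (55.6%) of these partners were among the strongest 5% of the male list. In only 23 cases was the strongest partner below the middle of the male list, 3 (X chromosome) and 20 (autosomes).

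When equal numbers were taken from the top of each list, the overlap was larger on the X chromosome. Of the 50 strongest female records, 34 were X-linked, against 44 of the 50 strongest male ones. All 50 of these female records had some male record and 49 of the 50 male records had some female record, but 30 of 50 (60.0%) had a partner in the top 50 of the other list. Of the 905 female records, 61.3% had a partner among the 905 strongest male records, 72.6% (X chromosome) and 46.5% (autosomes).

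The gene of one of the complex's own RNAs headed both lists. The record at roX1 ranked 1 in females and 1 in males, with summits 9 bp apart and widths of 1963 and 2069 bp. The record at roX2 ranked 3 in females and 20 in males, with summits 5 bp apart and widths of 6498 and 8236 bp. Pp2C1, a protein phosphatase gene whose intron holds a HAS, ranked 16 in females and 5 in males. These 3 sites were therefore high in both lists, and their order differed.

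The other X-linked pairs of highest mean percentile were all at HAS. The pair in CG9132 ranked 2 in females and 8 in males. Socs16D, a suppressor of cytokine signalling gene, ranked 4 and 7 with summits 0 bp apart. Gbeta13F, encoding a G protein beta subunit, ranked 5 and 12, and the site 95 bp from CG12237 ranked 6 and 3. Stt3A, encoding an oligosaccharyltransferase subunit, ranked 7 and 25. The pair in CG1677 and the autophagy gene Atg5 ranked 11 and 13. All 8 X-linked pairs, roX1 and roX2 included, had an MSL2 and an MSL3 record of both lines within 500 bp.

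The 8 autosomal pairs ranked from 8 to 21 in females and from 4 to 159 in males, ranks that come from lists of very different length and were not compared with each other. The pair in a coding exon of InR, the insulin receptor gene, ranked 9 in females and 4 in males. The pair 111 bp from mRpL13, a mitochondrial ribosomal protein gene, ranked 10 and 68, that 186 bp from CG13698 ranked 8 and 136, and that 206 bp from T48, a gene of gastrulation, ranked 13 and 34. In introns, dachs, an atypical myosin gene, ranked 12 and 104, Rtnl1, a reticulon gene, 18 and 78, and bun, a TSC22 family gene, 21 and 159. The homeotic gene Antp ranked 20 and 117. The summits of the 8 pairs were 0 to 14 bp apart. All 8 had an MSL3 record of males within 500 bp, and 3 (InR, T48 and Rtnl1) had an MSL2 record of males. An MSL3 record of females was at all of them but CG13698, and an MSL2 record of females at InR, mRpL13, T48 and Rtnl1.

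The word AAGCAGT was frequent at strong autosomal records beyond these named sites. Among autosomal female records in the strongest 10% of the list, 23 of 24 (95.8%, 79.8 to 99.3) had it within 100 bp of the summit, and 22 had 2 or more copies. Without the 8 named pairs the count was 15 of 16. The share was 71.4% (30 of 42) in the next 15% of the list, 26.8% in the next 25% and 8.06% in the weaker 50%. Of all autosomal windows of the same length, 2.48% held the word and 0.0602% held 2 or more, and around autosomal start sites the shares were 3.24% and 0.147%.

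The X-linked female records had the word less often, 7 of 66 (10.6%) in the strongest 10% and 5.44% in the weaker 50% of the list, and 2.42% of X-linked windows held it. GA repeats were at 25 of 66 X-linked female summits in the strongest 10% (37.9%, 27.2 to 49.9), and at 25.8%, 17.7% and 10.0% in the next classes, but at 1 of 24 autosomal ones. Windows of the same length held a GA repeat in 1.97% of cases on the X chromosome and in 1.39% on the autosomes.

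**Figure D2:**
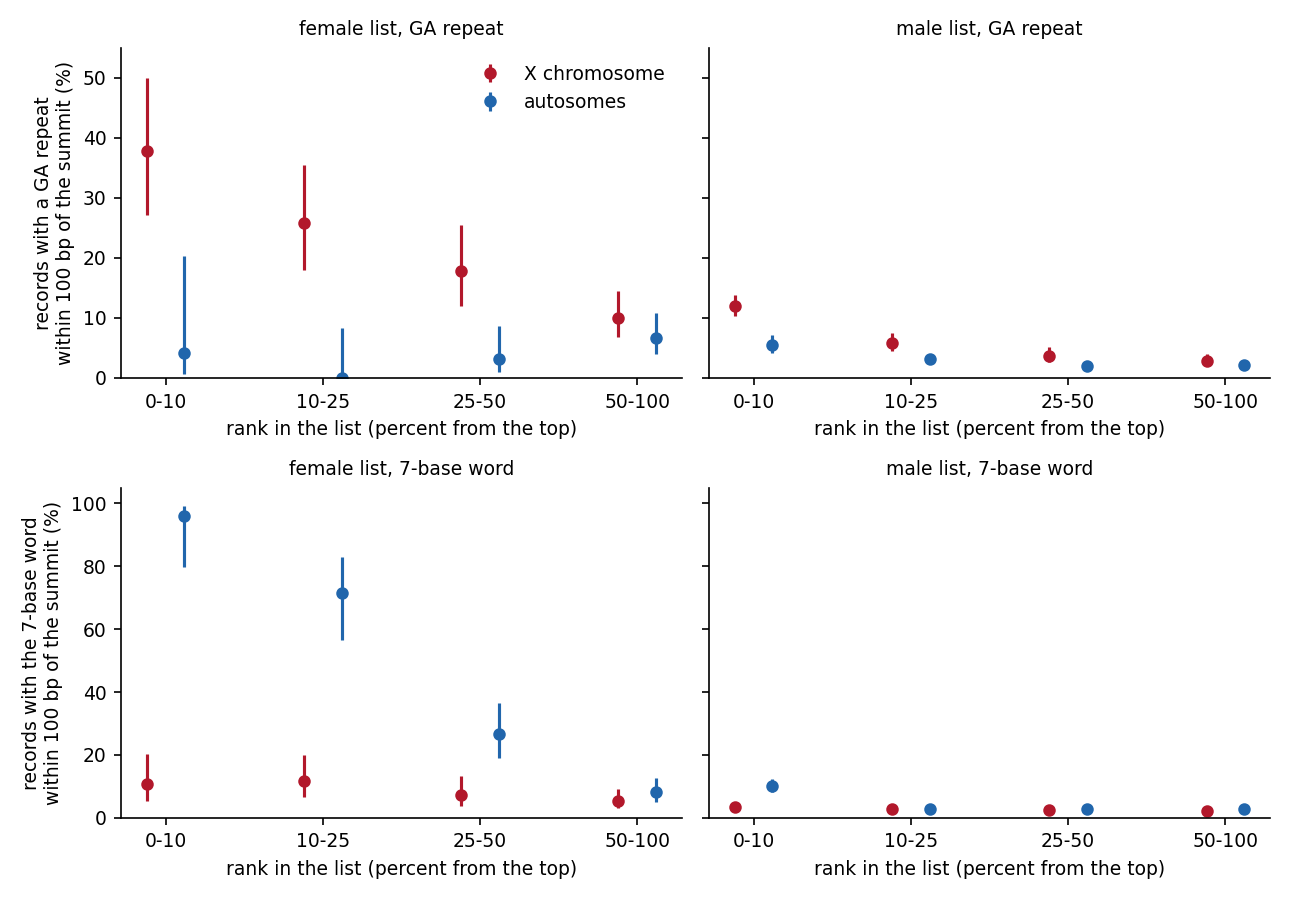
Percent of records with a GA repeat (top) and with the word of 7 bases AAGCAGT (bottom) within 100 bp of the summit, by rank class of the female list (left) and the male list (right), on the X chromosome (red) and the autosomes (blue); bars are 95% Wilson intervals. In the strongest 10% of the female list the repeat is at 37.9% of X-linked records and the word at 95.8% of autosomal ones.

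In the male list the word was more frequent at autosomal records with a female record. Of male autosomal records in the strongest 5%, 61 of 194 with a female record (31.4%, 25.3 to 38.3) and 7 of 200 without one (3.50%, 1.71 to 7.05) had it, and 2 or more copies were at 49 and 0 (0 of 200, 95% interval up to 1.88%). Over all male autosomal records without a female record 2.71% (466 of 17168) had the word, near the 2.48% of all windows.

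Among autosomal pairs, those with the word stood higher in the male list less often than those without it. To set the lists on one scale, the 859 pairs were placed from 0 to 100 in each list. Of 88 autosomal pairs with the word, 13 (14.8%, 8.84 to 23.7) stood higher in the male list, with a median shift of −16.0 places (−23.2 to −12.2). Of 261 autosomal pairs without it, 124 (47.5%, 41.5 to 53.6) did, with a median shift of −1.28 (−3.78 to 1.75). X-linked pairs stood higher in the male list in 294 of 504 cases (58.3%, 54.0 to 62.6), with a median shift of 2.68. Places within pairs sum to the same total in both lists, so that a rise of one class goes with a fall of another. The median female place was 76.95 for autosomal pairs with the word and 35.91 for those without it. Pairs with the word therefore started higher and had more room to fall. The part of this starting place in the shifts was not tested.

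**Figure D3:**
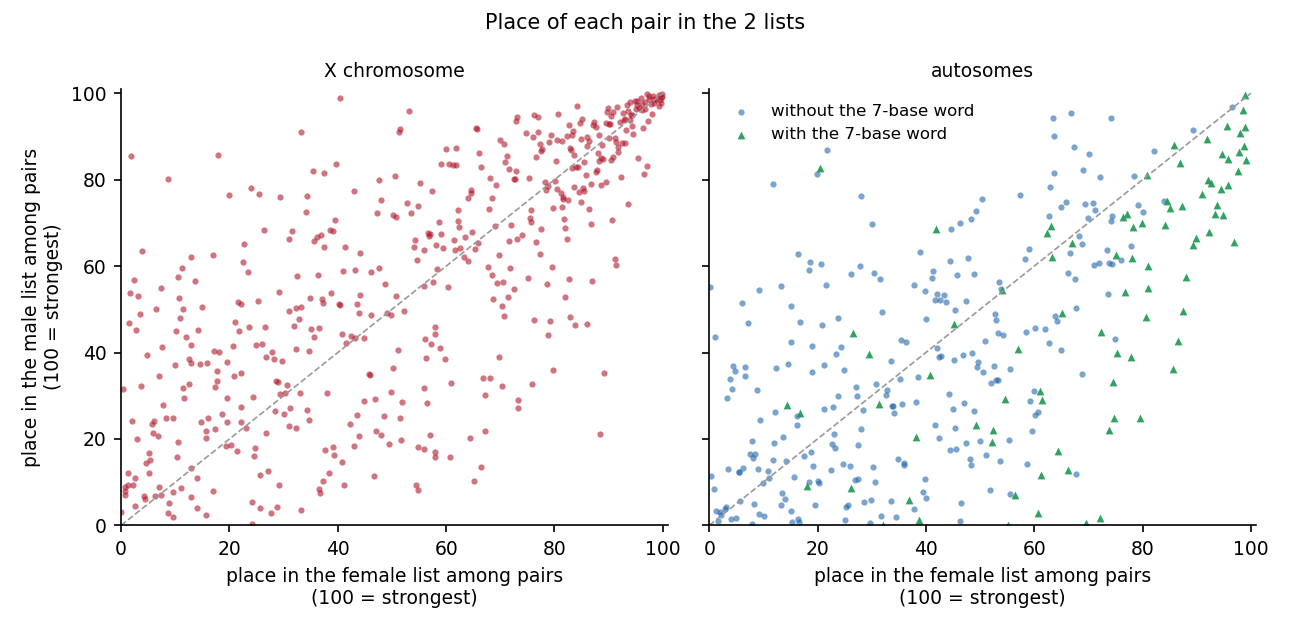
Place of each of 504 X-linked pairs (left) and 349 autosomal pairs (right) in the female list (x axis) and the male list (y axis), from 0 to 100 among all pairs, with 100 the strongest; the dashed line marks equal places. Autosomal pairs with the word AAGCAGT (green triangles) lie mostly below the line, with 13 of 88 above it, and the strongest X-linked pairs gather at the top right.

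The other 2 proteins differed at these sites. Pairs with the word were also less often at a start site, 60.2% against 85.4% of those without it. MSL3 records of the same line were within 500 bp of 43.2% (females) and 79.5% (males) of the autosomal pairs with the word, and of 28.7% and 74.3% of those without it. MSL2 records were at 15.9% and 37.5% of pairs with the word, and at 38.3% and 79.3% of those without it. In the MSL2 lists, 5 of 63 autosomal records in the strongest 10% had the word in females (7.94%) and 11 of 288 in males (3.82%). In the MSL3 lists these were 21 of 70 and 32 of 185 (17.3%). The MSL2 and MSL3 lists come from other libraries than the MSL1 lists, but the sites of the 3 proteins coincide in part.

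The ranks of the 2 members of a pair went together over all pairs, and less closely among the weaker female records alone. Spearman's rho across pairs was 0.741 (X chromosome) and 0.608 (autosomes), and it was 0.822 for X-linked pairs at HAS and 0.506 for the others. The 95 X-linked pairs with a GA repeat had a rho of 0.886. Between the 2 inputs of the female IDR, whose cut-off was the one stated for true replicates, rho was 0.928 over the same pairs, which the IDR step had chosen for recurring. In the weaker 50% of the female list rho between the lines was 0.312 (X chromosome) and 0.280 (autosomes). Between the 2 female inputs it was lower there too, 0.679 and 0.708, against 0.941 and 0.905 over all X-linked and autosomal pairs. A cut range of ranks lowers rho by itself, and its part was not tested. Wide records rank high and all pairs share the 2 lists, so these values are descriptions across sites.

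Summits lay close together. The median distance between the male and the female summit was 30 bp (26 to 35), and 535 of 859 pairs (62.3%) were within 50 bp. It was 36 bp on the X chromosome and 23 bp on the autosomes. Between the 2 female IDR inputs the median distance at the same sites was 22 bp, 28 bp on the X chromosome and 17 bp on the autosomes, and 74.4% were within 50 bp. In the strongest 25% of the female list the distance between the lines was 16 bp on the X chromosome and 8 bp on the autosomes, and in the weaker 50% 58 and 50 bp. X-linked pairs with a GA repeat had a median of 19 bp and the others 40 bp. Autosomal pairs with the word had 14 bp and the others 30 bp. Those with the word also stood higher in the female list, with median percentiles of 77.8 and 37.0. The part of rank in this difference was not tested. Distances over 500 bp occurred in 111 pairs (12.9%).

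**Figure D4:**
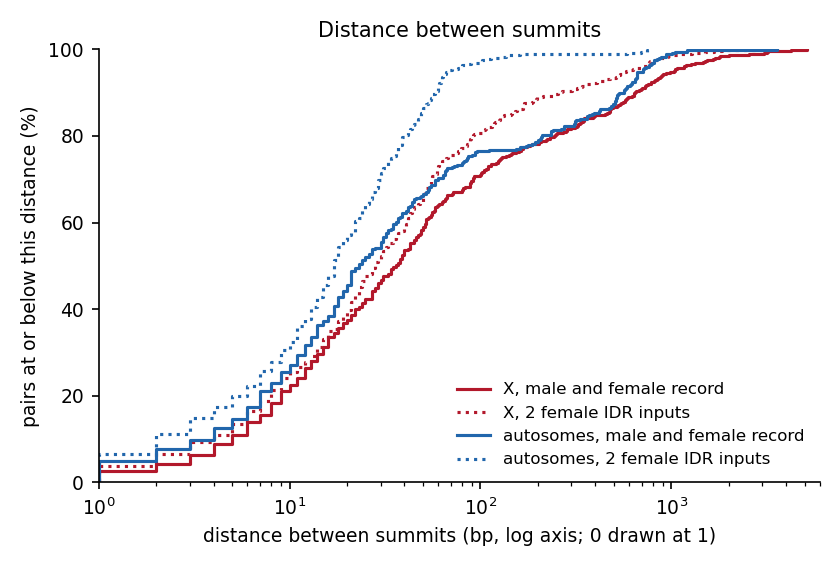
Cumulative percent of pairs by the distance between summits (bp, log axis), for the male and the female record (solid) and for the 2 female IDR inputs at the same sites (dotted), on the X chromosome (red) and the autosomes (blue). The solid curves reach 50% at 36 bp (X) and 23 bp (autosomes), the dotted ones at 28 and 17 bp.

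Paired records were wider than unpaired ones, except autosomal female records, whose intervals overlap. Pairing by edges favours wide records, which reach more sequence, so this difference is partly fixed by the rule. The median width of female records was 999 bp on the X chromosome with a male record and 386 bp without one, and 413 (391 to 426) and 372 bp (295 to 490) on the autosomes. For male records the medians were 919 and 449 bp on the X chromosome and 636 and 345 bp on the autosomes. In X-linked pairs the median ratio of the male to the female width was 1.00 at HAS (0.987 to 1.02) and 1.01 elsewhere (0.964 to 1.05). In autosomal pairs at a start site the male record was 1.73 times as wide (1.55 to 1.88), 766 against 404.5 bp in the medians, and it was wider in 231 of 276 pairs (83.7%). In autosomal pairs away from start sites the ratio was 1.07 (0.899 to 1.18). With the word AAGCAGT it was 1.09 and without it 1.70, but 60.2% and 85.4% of these pairs were at a start site, so the 2 splits overlap.

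**Figure D5:**
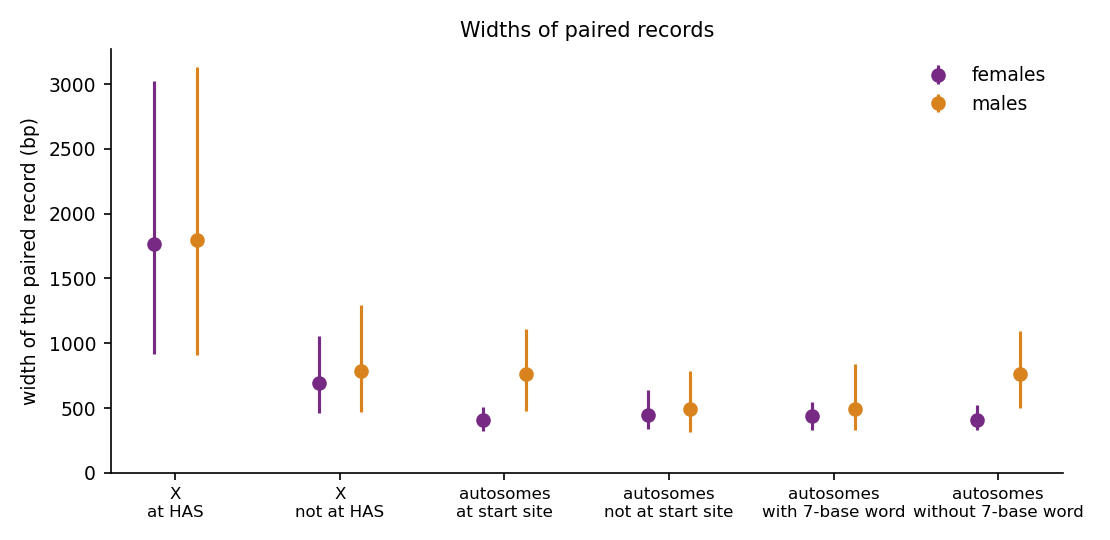
Width in bp of the female (purple) and the male (orange) record of each pair, with points at the median and bars from the lower to the upper quartile, for X-linked pairs at and away from HAS and for autosomal pairs split by start site and by the word of 7 bases. The points differ most for autosomal pairs at start sites, 404.5 bp in females and 766 bp in males.

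Summits of autosomal pairs were mostly near start sites. Of autosomal female records with a male record, 276 of 349 (79.1%) were within 500 bp of a start site, against 39.1% of X-linked ones. The share was 65.4% for autosomal male records with a female record and 24.3% for those without, and 34.6% and 22.2% on the X chromosome. Of the sequence, 13.8% on the autosomes and 12.6% on the X chromosome lay that near. X-linked pairs were spread along genes. Of male records inside 1 protein-coding gene of at least 2000 bp, 30.1% of X-linked and 63.5% of autosomal ones with a female record lay in the part next to the start when the gene was cut into 5 equal parts. For those without a female record these shares were 17.7% and 21.9%, and 28.5% of the X-linked ones lay in the part next to the end.

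The male records without a female record were mainly in coding sequence. Their summits lay in a coding exon in 63.5% of cases on the X chromosome (2273 of 3577) and 60.4% on the autosomes (10372 of 17168), while coding sequence makes up 16.7% and 17.1% of the bases. For male records with a female record the shares were 43.6% (323 of 740, X-linked) and 23.5% (107 of 456, autosomal), and for female records with a male record 31.7% and 3.72%. In the strongest 5% of the male list 46.8% of all X-linked records had their summit in a coding exon. Along the autosomal part of the male list the share was 12.2% in the strongest 5%, 42.4% in the next 5% and 65.5% in the next 15%. Over these classes the median GC content around the summit rose too, from 51.2% to 56.5% and 59.2%. It was 42.3% for all windows and 51.7% for windows centred in coding sequence. In the next 25% the coding share was higher, 67.1%, and the GC content lower, 57.7%. In the weaker 50% they were 57.2% and 55.2%. The part of GC content in these records was not tested.

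HAS were at 245 of 504 X-linked female records with a male record (48.6%) and at 2 of 18 without one. For male X-linked records the shares were 42.2% with a female record and 2.71% (97 of 3577) without, and 2.44% of the X sequence lay within 500 bp of a HAS. The HAS were chosen in earlier studies for strong binding of the complex, so they are not independent of MSL1 rank. GA repeats were at 14.5% of male X-linked summits with a female record (12.1 to 17.2) and at 4.61% without. Within the strongest 5% of the male list the shares were 21.4% (90 of 421) and 8.27% (23 of 278). The medians of the percentile still differed in this class, 98.5 and 96.5. In the next 5% the shares were 6.77% (9 of 133) and 6.67% (29 of 435), and in the next 15% 3.96% and 6.08%. They were 6.38% and 3.48% in the next 25%, and 2.63% and 2.86% in the weaker 50%. In each class below the strongest 5% the intervals overlapped, so a difference was seen in the strongest class only.

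The other MSL proteins of the same line lay at nearly every strong X-linked male record, with or without a female MSL1 record. In the strongest 5% an MSL2 record was within 500 bp of 420 of 421 with and 278 of 278 without, and an MSL3 record of 419 and 277. Over all X-linked male records without a female record 50.8% had MSL2 and 56.1% MSL3, and 20.15% and 22.8% of the X sequence lay that near to such a record. In the female line, too, many of the strong X-linked male-only sites were occupied. Of these 278, 161 (57.9%, 52.0 to 63.6) had a female MSL2 record, 175 (62.9%, 57.1 to 68.4) a female MSL3 record and 231 (83.1%) at least 1 of them, while 10.6% (MSL2) and 9.36% (MSL3) of the X sequence lay that near. Of the 421 with a female MSL1 record 97.1% did. Of the 200 strong autosomal male records without a female MSL1 record, 111 (55.5%) had a female MSL2 record and 32 a female MSL3 record, against 1.09% and 0.518% of the autosomal sequence.

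The strongest male-only records on the X chromosome show this. The record in CG2278 (chrX:8167164-8170118) ranked 17 in males, lay at a HAS and had MSL2 and MSL3 records in both lines, but no female MSL1 record. That in Smr, a corepressor gene, ranked 121 and was 6649 bp wide. That in baz, which encodes a polarity protein, ranked 135, that in Idh3a, encoding a subunit of isocitrate dehydrogenase, 143, and that in the kinase gene Tao 198. On the autosomes the strongest were in bru2, an RNA-binding protein gene (132), 45 bp from pzg (150), in CG33229 (166), in tou (204) and in Cyt-c1, the cytochrome c1 gene (215). All 5 autosomal sites had MSL2 and MSL3 records in males and an MSL2 record in females, but none had an MSL3 record in females.

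X-linked male-only records gathered near female ones. Of 3577 X-linked male-only records, 967 (27.0%, 25.6 to 28.5) were within 5000 bp of a female record, and 13.0% of the remaining X sequence was. Among those in the strongest 10% of the male list 319 of 713 (44.7%) were. The median distance was 12675 bp, and 6028 bp in that strongest class. On the autosomes 5.48% of male-only records and 2.84% of the sequence lay within 5000 bp. In the strongest 10% of the male list 53 of 660 autosomal male-only records (8.03%) did.

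On the chromosome arms 43 female records had no male record. They were weaker in the female list, with a median percentile of 30.7 (X chromosome) and 26.6 (autosomes) against 56.9 and 46.5 for paired records, and 4 of the 43 were in the strongest 25% of the list. A male record was within 1000 bp of 6 of them and within 2000 bp of 13, and the median distance to one was 3880 bp. The strongest lay 249 bp from lobo (rank 92) and 180 bp from Slob (rank 146), and the next were in CG33557 (168), CG32196 (214) and CR45668 (346). Female MSL2 was at 5 of the 18 X-linked ones and 2 of the 25 autosomal ones, below the 84.9% and 32.7% of paired records. Male MSL2 was at 8 of the 43, 6 X-linked and 2 autosomal, and male MSL3 at 5, 1 X-linked and 4 autosomal. Of paired female records, 96.2% (X chromosome) and 68.2% (autosomes) had male MSL2, and 97.8% and 74.8% male MSL3. Of the sequence, 20.15% (X chromosome) and 5.93% (autosomes) lay within 500 bp of a male MSL2 record. For male MSL3 these shares were 22.8% and 7.96%. The word AAGCAGT was at 8 of the 25 autosomal ones (17.2 to 51.6%) and at 25.2% of the paired ones, which lies inside that interval. No window reaching 100 bp to either side of a female summit on the arms had a second copy in the assembly at 95% identity over 160 bp.

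Records at the genes used in the transgenes are set apart, since a transgene adds copies of their sequence and the IgG libraries in the labels come from flies without transgenes. The male list had a record of 3569 bp in msl-1 (percentile 98.1), and the female list had none there. The female list had a record of 2300 bp with its summit in a coding exon of msl-2 (percentile 38.8), where the male list had one of 381 bp (percentile 53.3). At Ubi-p63E the percentile was 43.5 in females and 97.6 in males. Percentiles stand within lists of very different length and were not compared. The part of transgene DNA in these records was not tested.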

How the data were processed

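MSL1 was measured by ChIP-seq in whole flies, in 1 library of M1[WT] males and 2 of M1[WT]+MSL2 females. Adapters were removed by the authors with cutadapt, reads aligned to dm6 with Bowtie2 version 2 and duplicates dropped with Picard. Blacklisted regions were left out, and MACS2 gave the peaks, with nonspecific IgG as the control. The submitters' processing notes also name deepTools and dm3, but the positions and sequence names are those of dm6. The deposited score comes from the IDR in the female list and from MACS2 in the male list. The deposited ratio is the fold enrichment over IgG at the summit, and the deposited −log10 p and −log10 q are those of MACS2. The female list has the position of the first IDR input throughout, and it ends at the IDR threshold of 0.05 given for true replicates. No read counts are given, so depth is unknown. No column of other samples was present (0).

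Pairs were formed with Python 3.11.15, numpy 2.4.6, scipy 1.17.1 and pandas 2.3.3, and figures with matplotlib 3.10.9. For each female record, the male partner with the nearest summit was used for distances, widths and ranks. No test was made. Shares have 95% Wilson intervals and medians 95% intervals from order statistics. Genes and 23581 start sites came from Ensembl release 115, sequence from the RefSeq copy of the same assembly, and 301 HAS from the study's supplementary list. Copies were sought with blastn 2.17.0. The functions passed 8 tests on simulated data, including against bedtools 2.31.1.

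Named are roX1, roX2, Pp2C1, the 8 X-linked and 8 autosomal pairs of highest mean percentile, the 5 strongest male-only records of the X chromosome and the 5 of the autosomes (1 per 5000 bp), and the 5 strongest female-only records. CG12236, msl-1, msl-2 and Ubi-p63E were added after their values were seen. Members, lists and rules were chosen with earlier results of these data known. Alternatives were other distances, summits in place of edges, lists of equal length, the strongest 50% of each list, joined records, ranks by fold, and other windows for sequence, start sites, HAS and MSL2. Libraries of other lines were not used here.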

Additional observations from a re-analysis of the deposited data

How the results depend on the processing

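Of 64 values under alternative settings, 23 stayed within the 95% interval of the reported value and 41 did not. With overlap in place of a gap of 500 bp, 92.7% of female and 4.08% of male records were paired, with a median male percentile of 97.05 and male width of 880 bp. With 1000 bp these were 6.82% of male records, 93.6 and 697.5 bp. With summits within 500 bp, 82.7% of female and 3.41% of male records were paired, the percentile was 97.5, rho 0.727 and the summit distance 22 bp. With the 905 strongest male records, the shares were 61.3% and 62.1%, the X share 64.5%, the percentile within that cut list 64.6, rho 0.618, the distance 23 bp and the widths 787 bp (females) and 1108 bp (males). With the strongest 50% of each list, 96.9% of female records were paired, the percentile was 95.9, the distance 17 bp, the widths 768 and 974 bp and the X shares 62.6% and 27.8%. Ranked by fold, rho was 0.628. For male X-linked records with a female record, GA repeats were at 10.4% within 50 bp and 29.2% for 6 bases, and HAS at 33.9% for overlap and 47.8% within 1000 bp. Start sites within 1000 bp were at 86.0% of autosomal ones, and MSL2 was at 44.7% (overlap) or 56.9% (1000 bp) of X-linked male-only records.

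Chosen after seeing the data, leaving out male records with p over 0.01 gave 6.38% of male records paired and an X share of 21.7%, and leaving out those with q over 0.05 gave 7.24% and 23.2%. The word AAGCAGT was at 17.5% of autosomal female pairs when 2 copies were asked for and at 47.9% away from start sites. Under each distance the share of male records with a partner was larger on the X chromosome and the width ratio larger on the autosomes. No paired analysis was possible because the male list has 1 library, and the lists pool replicates, so that no replicate could be left out. No list allows a test of the difference between the lines, and depth limits what a missing record means.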
